A study of Homo sapiens with 6 samples.

Results

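The set comprised 10 genes that p53 is known to activate: SESN1, TP53INP1, CCNG1, AEN, EDA2R, TP53I3, GDF15, ACER2, FBXO22 and PURPL. They were taken by gene symbol from an Affymetrix array study of A549, a cell line from a human lung adenocarcinoma that keeps wild-type p53. All 10 were found, on 11 of 53617 array features, among 14884 named genes. The symbols had been picked with earlier results of these arrays known, on the difference that X-rays made at each temperature and on the effect of heat alone. Their own values are therefore given as a description with no test, and tests are given for other p53 targets.

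There were 6 arrays, 1 in each group, and every group was A549 cells grown for 24 h at 37 °C beforehand. The X-rays alone group received 3 Gy of X-rays followed by 3 h at 37 °C. The 41.5 °C heat and the 44 °C heat groups spent 1 h at that temperature and then 3 h at 37 °C. The 41.5 °C heat and X-rays group and the 44 °C heat and X-rays group were irradiated with 3 Gy straight after the heat, and how long they were kept afterwards is not given. The control had neither treatment, and the labels do not say when it was harvested. Time in culture and treatment therefore cannot be told apart in a difference from it. Nor can they in the X-ray differences at 41.5 and 44 °C, whose irradiated arrays have no stated time after treatment. Nothing in the labels places any 2 arrays in separate cultures. No group was repeated, so the spread behind the p-values comes from the disagreement between the X-ray differences at 37 and 41.5 °C. It was pooled mostly over genes of similar intensity, with 1 residual against 11.4 prior degrees of freedom. A standard error therefore says little about how closely the 2 pairs of a single gene matched. The disagreement between the pairs could be purely technical, and it also holds any true change of the X-ray effect between these temperatures. With 1 array in a group, a difference between single arrays has no replicate check. In such bulk RNA a loss of cells of one kind and less RNA per cell cannot be told apart. Expression values are on the log2 scale, so that 1 unit is a doubling, and medians over all features lay between 4.39 and 4.46. Of 12 epithelial markers 7 were measured. KRT18, an epithelial keratin, read 11.43 to 11.59 and the other 6 between 3.99 and 7.73, which overlaps the 1.72 to 5.81 of the measured leukocyte, fibroblast and endothelial markers (2, 2 and 3 genes). The largest range of a marker over the arrays was 0.64 for epithelium, 0.92 for leukocytes, 0.56 for fibroblasts and 0.77 for endothelium. Features of different genes bind with different strength, so levels are compared only within a gene.

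p53 is a transcription factor that is held low in unstressed cells by the ubiquitin ligase MDM2. DNA breaks such as those made by X-rays activate the kinases ATM and CHEK2, p53 escapes degradation and binds response elements made of paired copies of a decamer, and the nearby genes are transcribed. The products act at several levels: sestrins restrain growth signalling, cyclin G1 feeds back on MDM2, nucleases and death receptors favour apoptosis, and secreted GDF15 signals to other tissues. Heat unfolds proteins and can also interfere with transcription and DNA repair, and heating cells before radiation is used to sensitise tumours.

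Promoter sequences are shown for the 2 genes of the set in which the p53 half-site consensus, a decamer, was matched without a mismatch. The RefSeq table of GRCh38.p14 held a 300-base promoter, from 250 bases before the start to 50 after it, for 8 of the 10 genes. The consensus reads the same on both strands, and 1786 of 27305 RefSeq promoters of this length (6.54%) held at least 1 match. PURPL (chr5:27472042-27472341, plus strand) held a pair of abutting matches at positions -127 to -118 and -117 to -108 from the start. AEN (chr15:88621090-88621389, plus strand) held 1 match at -34 to -25. Capitals mark the matched decamers.
PURPL: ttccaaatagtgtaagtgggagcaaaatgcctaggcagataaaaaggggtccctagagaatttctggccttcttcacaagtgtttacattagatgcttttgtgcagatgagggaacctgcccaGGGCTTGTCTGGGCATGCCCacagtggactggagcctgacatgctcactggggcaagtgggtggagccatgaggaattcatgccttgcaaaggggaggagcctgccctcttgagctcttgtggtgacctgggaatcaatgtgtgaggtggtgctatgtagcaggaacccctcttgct
AEN: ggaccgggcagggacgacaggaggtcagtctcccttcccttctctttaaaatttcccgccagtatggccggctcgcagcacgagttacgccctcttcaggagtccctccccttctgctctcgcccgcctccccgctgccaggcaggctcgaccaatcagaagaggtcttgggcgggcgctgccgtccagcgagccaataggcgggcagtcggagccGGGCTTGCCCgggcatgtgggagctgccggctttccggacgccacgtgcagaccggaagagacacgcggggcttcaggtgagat
Among 43 promoters of the other p53 targets listed here, 5 held a match (GPX1, PLK2, MCC, ISCU and RPS27L). Of motifs linked to other signals, the heat shock type letters TTCNNGAA, read on both strands at once because they are palindromic, were in 0 of the 8 promoters and in 7.84% of all. The palindrome GAANNTTC, which shares its half-elements with TTCNNGAA, was in 1 of 8, that of TP53I3, and in 6.87% of all. TATAAA on either strand was in 1 of 8, that of GDF15, and in 3264 of the 27305. A match only describes the letters of this window.

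Radiation at 37 °C went with higher levels of all 10 genes. At least 1.5-fold higher values were found for 7 of the 10 in X-rays alone against control, where 1.55% of all named genes passed the same fold. In 41.5 °C heat and X-rays against 41.5 °C heat, all 10 were at least 1.5-fold higher (1.65% of all genes). In 44 °C heat and X-rays against 44 °C heat, PURPL was the 1 gene of the 10 that passed (0.752% of all genes). At 2-fold, 3 genes passed at 37 °C (0.181% of all genes), 5 at 41.5 °C (0.202%) and 0 at 44 °C (0.0672%). The median log2 difference of the set was 0.79 at 37 °C, 1.02 at 41.5 °C and 0.08 at 44 °C, while the median of all genes lay within 0.0089 of 0 at each temperature. These 3 pairs share no array. Because the set was picked on these differences, the shares describe the choice and are no evidence for it.

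**Figure D1:**
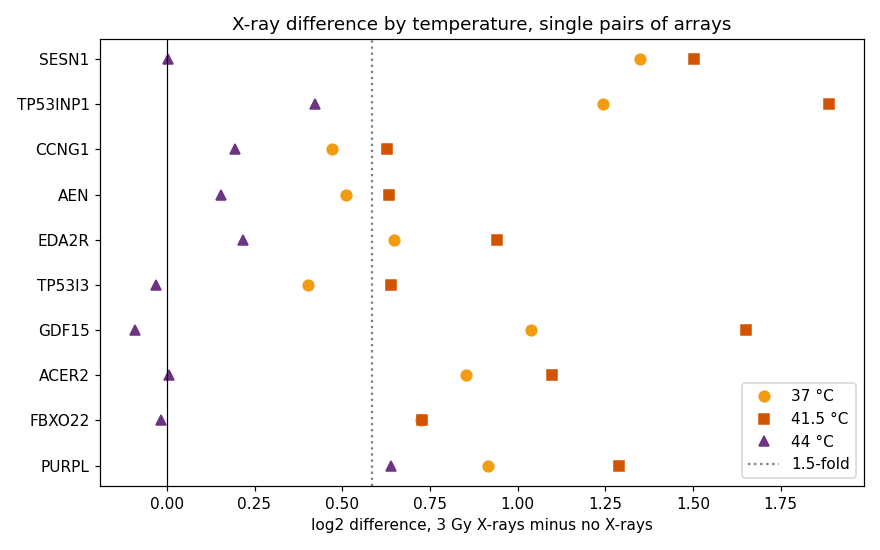
Log2 difference of 3 Gy X-rays minus no X-rays for each of the 10 genes (rows) at 37, 41.5 and 44 °C, each point from 1 pair of arrays, with the dotted line at 1.5-fold. In every row the 44 °C point lies lowest, and only that of PURPL (0.64) lies right of the line.

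Among regulators of growth and the cell cycle, SESN1, a sestrin that restrains the growth kinase complex mTORC1, had the largest X-ray difference of the set at 37 °C. Its level was 7.08 in X-rays alone against 5.73 in control, 7.14 in 41.5 °C heat and X-rays against 5.64 in 41.5 °C heat, and 5.45 in 44 °C heat and X-rays against 5.45 in 44 °C heat. Both irradiated arrays below 44 °C were high, and the other 4 arrays lay between 5.45 and 5.73. The ratio of 2.55-fold at 37 °C was 4th among all 14884 genes and that of 2.83-fold at 41.5 °C was 3rd, whereas the difference at 44 °C was 0.0045 on the log2 scale.

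TP53INP1, a nuclear protein that acts with p53 in arrest, autophagy and death, read 7.15 in X-rays alone against 5.91 in control. It read 6.94 in 41.5 °C heat and X-rays against 5.06 in 41.5 °C heat, and 6.32 in 44 °C heat and X-rays against 5.90 in 44 °C heat. The 3 irradiated arrays were its 3 highest, and 41.5 °C heat alone was its lowest. Its difference of 1.89 at 41.5 °C, 3.70-fold, ranked first among all genes, and at 44 °C the difference was 0.42, or 1.34-fold.

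CCNG1, cyclin G1, which binds a PP2A phosphatase that acts on MDM2, differed less. It read 8.44 in X-rays alone against 7.97 in control, 8.31 against 7.68 at 41.5 °C with and without X-rays, and 8.37 against 8.18 at 44 °C with and without X-rays. Its irradiated arrays stayed close together, within 0.14 of each other, while the unirradiated ones spread over 0.50. The difference was 0.19 at 44 °C and 0.47 at 37 °C, and of the 2 arrays at 44 °C the one without X-rays lay further from its 37 °C counterpart (0.21 above) than the one with X-rays (0.07 below).

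Among genes of cell death, AEN, a nuclease that degrades DNA and RNA in apoptosis, read 7.69 in X-rays alone against 7.18 in control. At 41.5 °C it read 8.03 with X-rays against 7.40 without, and at 44 °C 7.84 with X-rays against 7.68 without. The control was its lowest array, and 44 °C heat alone (7.68) was level with X-rays alone (7.69). The X-ray difference was 0.51, 0.63 and 0.15 at 37, 41.5 and 44 °C.

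EDA2R, the TNF family receptor for ectodysplasin A2, read 9.24 in X-rays alone against 8.59 in control. It read 9.47 against 8.53 at 41.5 °C and 8.39 against 8.18 at 44 °C, with and without X-rays. Both 44 °C arrays lay below the control, and the irradiated one was 0.85 below X-rays alone. The difference at 44 °C was 1.16-fold, against 1.57-fold at 37 °C and 1.92-fold at 41.5 °C.

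TP53I3, an oxidoreductase of the quinone reductase family linked to reactive oxygen in p53-driven death, had the smallest difference at 37 °C. It read 7.70 in X-rays alone against 7.30 in control, 8.37 against 7.73 at 41.5 °C and 7.04 against 7.07 at 44 °C, with and without X-rays. The 41.5 °C heat array without X-rays was within 0.03 of X-rays alone, and both 44 °C arrays lay below the control. Its differences were 0.40, 0.64 and -0.03 at 37, 41.5 and 44 °C.

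**Figure D2:**
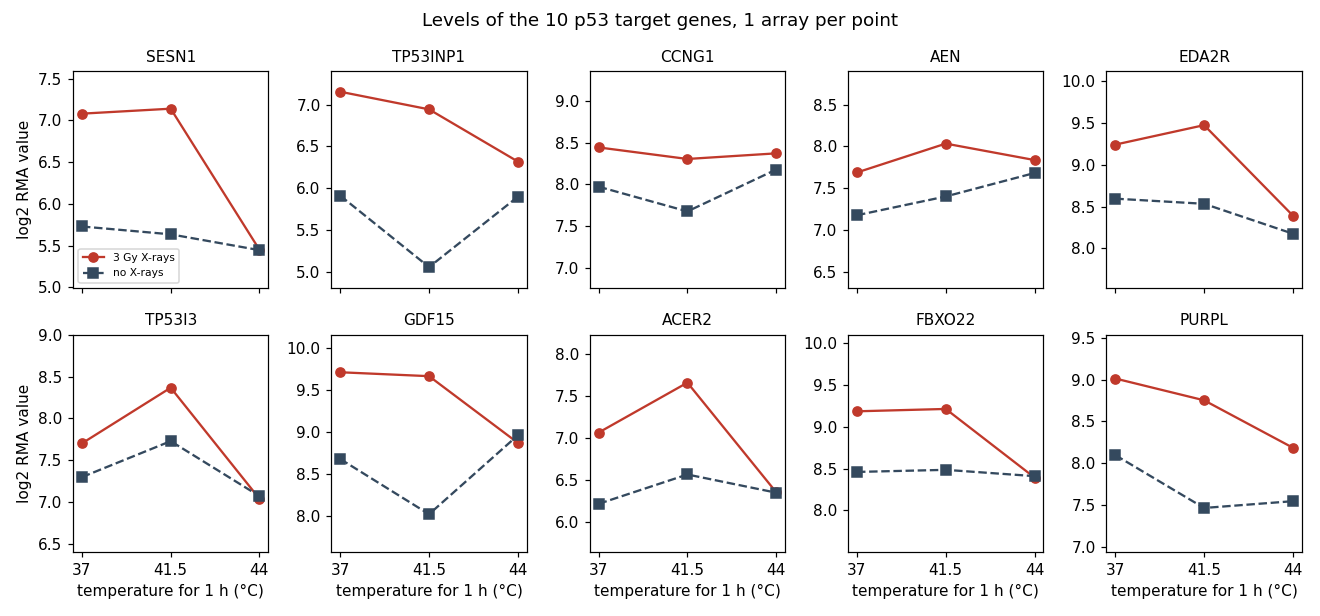
Log2 RMA value of each of the 10 genes against the temperature held for 1 h (37 °C being no heat), with 3 Gy X-rays (circles) and without (squares), 1 array per point and the same axis span in each panel. The lines of SESN1, TP53I3, GDF15, ACER2 and FBXO22 meet at 44 °C, while those of PURPL stay 0.64 apart.

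Among secreted and metabolic products, GDF15, a distant TGF-beta family hormone that curbs appetite through the receptor GFRAL, read 9.71 in X-rays alone against 8.68 in control. It read 9.67 against 8.02 at 41.5 °C and 8.87 against 8.96 at 44 °C, with and without X-rays. The irradiated arrays at 37 and 41.5 °C were alike, within 0.05, so that the larger difference at 41.5 °C (1.65, against 1.04) came with the lower level in 41.5 °C heat alone. At 44 °C the level without X-rays was 0.28 above the control and the X-ray difference was -0.09.

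ACER2, a Golgi ceramidase that makes sphingosine, read 7.06 in X-rays alone against 6.21 in control, 7.66 against 6.56 at 41.5 °C and 6.35 against 6.34 at 44 °C, with and without X-rays. Its 41.5 °C heat and X-rays array was the highest by 0.60, and both 44 °C arrays lay within 0.14 of the control. FBXO22, the substrate-binding subunit of an SCF ubiquitin ligase, read 9.19 in X-rays alone against 8.46 in control, 9.21 against 8.48 at 41.5 °C and 8.39 against 8.41 at 44 °C, with and without X-rays. The first 2 differences were the same, 1.65-fold and 1.66-fold, and its 4 other arrays spanned 8.39 to 8.48. A second, dimmer feature of FBXO22, annotated to a non-coding transcript, read 4.33 to 4.75 and its X-ray differences were 0.05 at 37 °C, -0.26 at 41.5 °C and -0.42 at 44 °C.

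PURPL, a long non-coding RNA that lowers p53 levels, had the largest X-ray difference at 44 °C. It read 9.01 in X-rays alone against 8.10 in control, 8.75 in 41.5 °C heat and X-rays against 7.46 in 41.5 °C heat, and 8.18 in 44 °C heat and X-rays against 7.54 in 44 °C heat. The 3 irradiated arrays were its highest, and both heated arrays without X-rays lay below the control. The 3 differences were 1.89-fold, 2.44-fold and 1.56-fold, and the last ranked 83rd among all genes. After a further quantile normalization the number of the 10 genes at 1.5-fold or more at 44 °C was 0.

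In each of the 10 genes the difference at 44 °C was below those at 37 and 41.5 °C, an order that 32.2% of all genes showed. Averaged over the 2 lower temperatures, the X-ray difference of the set had a median of 0.88, or 1.85-fold, and ran from 0.52 for TP53I3 to 1.57 for TP53INP1. The 44 °C difference was lower than this average by 0.35 (CCNG1) to 1.44 (GDF15), with a median of -0.66 for the set and 0.01 for all genes. The 41.5 °C difference exceeded the 37 °C one in all 10 genes, against 50.0% of all genes, by 0.0033 for FBXO22 and up to 0.64 for TP53INP1. With features averaged FBXO22 had the other order, 0.39 at 37 °C and 0.24 at 41.5 °C. The set was picked on these differences, so both orders describe the choice and are no evidence for it. The highest array was 41.5 °C heat and X-rays for 6 genes (SESN1, ACER2, AEN, EDA2R, FBXO22 and TP53I3) and X-rays alone for 4 (GDF15, TP53INP1, CCNG1 and PURPL). In 44 °C heat and X-rays 9 of 10 lay below X-rays alone, the exception being AEN, and 6 of 10 lay above the control.

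Heat alone moved the set in no common direction. The 41.5 °C heat array was at least 1.5-fold below the control for 3 genes (1.85% of all genes passed that fold downward) and above it by that fold for 0 (2.27% of all genes). At 2-fold 0 were lower (0.222% of all genes). These 3 were TP53INP1 (-0.85), GDF15 (-0.66) and PURPL (-0.63), and at the other end stood TP53I3 (0.43) and ACER2 (0.35). In the 44 °C heat array 0 genes passed 1.5-fold either way, where 4.17% of all genes passed upward and 3.04% downward, with values from -0.55 for PURPL to 0.51 for AEN. The medians were -0.08 at 41.5 °C and -0.03 at 44 °C. Both comparisons share the control array, and each heated array also enters the X-ray difference at its temperature with the opposite sign, so an error in that array would move the 2 values apart.

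**Figure D3:**
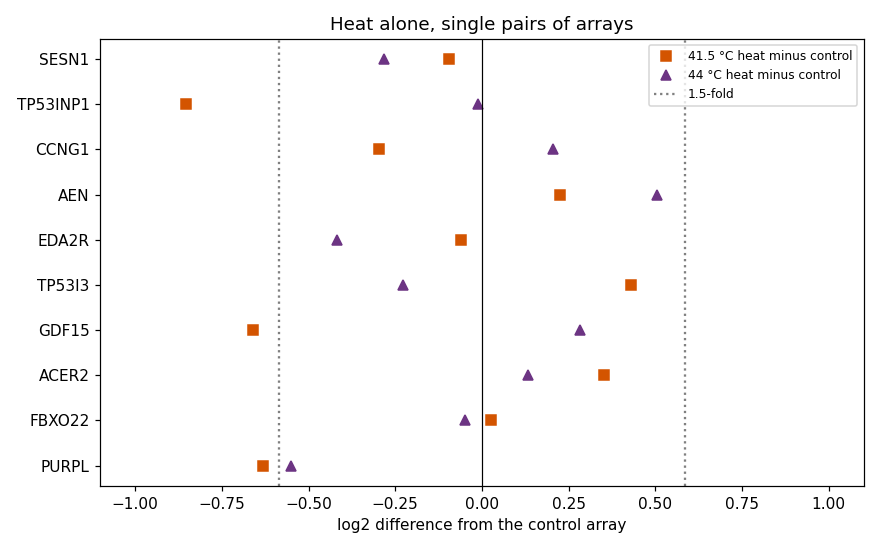
Log2 difference of 41.5 °C heat (squares) and 44 °C heat (triangles) from the control array for the 10 genes, with dotted lines at 1.5-fold. TP53INP1, GDF15 and PURPL lie left of the lower line at 41.5 °C, and no triangle lies outside the lines.

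Of 97 other genes listed as p53 targets, 53 had a named feature. Well-known ones such as CDKN1A and FAS were not analysed here. The 53 were tested in limma, in a model with temperature, a radiation effect shared by 37 and 41.5 °C and a separate radiation effect at 44 °C. This split was chosen with earlier results of these arrays known, so the tests are not independent of them. Radiation at 37 and 41.5 °C raised 13 of the 53 and lowered 0 at an adjusted p under 0.05, where 0.269% of all genes rose and 0.316% fell. The median of the 53 was 0.27 on the log2 scale and that of all genes -0.0026. Calls depended on the model: 0 of the 53 passed when the variances were moderated without an intensity trend, or when 1 radiation effect was fitted over all 3 temperatures.

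The 13 covered each role. Among stress kinases of the polo-like family, PLK3 rose by 0.76 ± 0.11 (SE, 2 pairs of arrays, adjusted p = 0.00817 in limma) and PLK2 by 0.62. PLK3 read 6.35 in X-rays alone against 5.70 in control, 6.81 against 5.94 at 41.5 °C and 6.13 against 5.95 at 44 °C, with and without X-rays. Of 11 death genes, PMAIP1 (Noxa) rose by 0.76, BBC3 (Puma), a killer of the same BH3-only class, by 0.69 and TRIAP1, a small inhibitor of apoptosis, by 0.69, whereas BAX, their pore-forming partner, did not pass (0.35 ± 0.09, SE, adjusted p = 0.216 in limma).

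Among 9 repair and metabolism genes, SESN2, the sestrin related to SESN1, rose by 0.92, TIGAR, which lowers glycolysis, by 0.67 and ISCU, an iron-sulfur cluster scaffold, by 0.64. Of 28 further targets, ZNF79, a zinc finger gene, rose most, 1.95-fold (0.97 ± 0.09, adjusted p = 5.05e-04 in limma), with 7.39 in X-rays alone against 6.44 in control, 7.61 against 6.63 at 41.5 °C, and 7.29 in 44 °C heat and X-rays, 0.29 above 44 °C heat. The ubiquitin ligase RNF19B (0.72), the ribosomal protein homologue RPS27L (0.68), the adaptor TRAF4 (0.66) and the early gene IER5 (0.64) rose too. These values are averages of 2 pairs that could differ. SESN2 had 0.59 at 37 °C and 1.25 at 41.5 °C, and TRAF4 had 0.41 and 0.91. The 41.5 °C difference was the larger in 11 of the 13 (50.0% of all genes). The lowest of the 53 were ARHGEF3 (-0.20) and SYTL1 (-0.13), neither of which passed. BBC3 and TRAF4 also missed the threshold after median centring (adjusted p = 0.0617 and 0.0816 in limma), and TRAF4 with features averaged.

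At 44 °C radiation raised 0 and lowered 0 of the 53, where 0.00672% of all genes rose. At an unadjusted p under 0.05 there were 3 of the 53 (2 higher, 1 lower), and 312 of all 14884 genes were higher and 291 lower. The 13 had differences from -0.15 for TRIAP1 to 0.29 for BBC3 there, with a median of 0.14. Each was below its values at 37 and 41.5 °C, an order that 32.2% of all genes showed and that calling the 13 on high values at those temperatures favours, so it is no evidence of a difference. Tested directly, the difference between the 2 radiation effects passed for 0 of the 53 (0.0134% of all genes were higher and 0.0202% lower), although 42 of 53 had negative values, with a median of -0.25 against 0.01 for all genes. At an unadjusted p under 0.05 there were 17 lower and 1 higher, where 404 of all 14884 genes were lower and 506 higher. Of the 14884 genes 7128 had negative values. Among the 13, the adjusted p of that difference in limma ran from 0.166 for TRIAP1 to 0.883 for BBC3. After a further quantile normalization 2 of the 53 passed. The median standard error of this difference over all genes was 0.237.

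**Figure D4:**
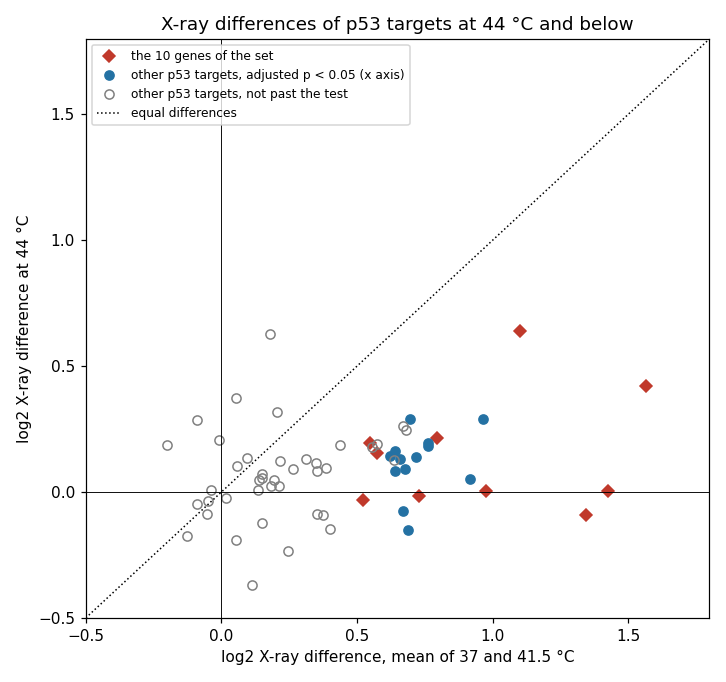
X-ray difference at 44 °C (1 pair of arrays) against the mean X-ray difference at 37 and 41.5 °C (2 pairs), both log2, for the 10 genes of the set (diamonds) and 53 other p53 targets (filled circles: the 13 that rose at 37 and 41.5 °C). Diamonds and filled circles were chosen for high values on the horizontal axis, so their place below the dotted line of equal differences follows in part from that choice. Of all 53 circles, 42 lie below the line and 11 above it, and 7128 of all 14884 genes would lie below it.

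Heat at 44 °C without X-rays raised 5 of the 53 and lowered 1 (2.55% and 1.91% of all genes). The 5 were IER5, PMAIP1, SESN2, TRIAP1 and ZNF79, each of them among the 13 that radiation raised at the lower temperatures. Both effects are measured from the same fitted control, so an error that lowers it would raise both. This overlap was not counted over all genes, so it is no evidence of shared regulation. IER5, which takes part in the heat shock response as well, rose 3.70-fold (1.89 ± 0.12, SE, adjusted p = 7.58e-07 in limma), with 8.52 in 44 °C heat and X-rays, 8.43 in 44 °C heat and 6.56 in control. SESN2 rose by 1.27, PMAIP1 by 1.19, TRIAP1 by 0.93 and ZNF79 by 0.57, whereas DDIT4, an inhibitor of mTORC1, fell by 0.64. Without the intensity trend 1 of these 6 passed, IER5 (adjusted p = 0.016 in limma). The additive model compares both 44 °C arrays with both 37 °C arrays, so its value is not that of heat without X-rays. In it TRIAP1 (0.51) and ZNF79 (0.23) did not pass (adjusted p = 0.125 and 0.461 in limma). SESN1 of the set was 0.28 below the control in the same array (-0.28). The comparison of 41.5 °C with 37 °C averages the pair without X-rays and the pair with X-rays. In it 4 of the 53 rose and 1 fell (3.29% and 2.03% of all genes). SFN, a checkpoint 14-3-3 protein (0.86), CCND1, cyclin D1 (0.61), TRIAP1 (0.44) and IER5 (0.34) rose and DDIT4 fell by 0.52. In the pair without X-rays the differences were 0.71 (SFN), 0.49 (CCND1), 0.51 (TRIAP1), 0.30 (IER5) and -0.62 (DDIT4). None of these 5 passed without the trend, with adjusted p in limma from 0.156 for SFN to 0.304 for IER5.

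No measured regulator of p53 passed in any of 5 comparisons. Of 22 listed, 15 had a named feature, and the ubiquitin ligase MDM2, the kinase ATM and the phosphatase PPM1D were not analysed here. Radiation at 37 and 41.5 °C gave values from -0.25 (TRIM24, a ubiquitin ligase for p53) and -0.24 (DAXX, a partner of MDM2) up to 0.05 (CHEK2) and 0.07 (PML), with 0 of 15 at an unadjusted p under 0.05. In the other 4 comparisons 0 to 4 of the 15 reached an unadjusted p under 0.05. The 4 were found at 41.5 °C against 37 °C, where 2719 of all 14884 genes reached it. For radiation at 37 and 41.5 °C 1067 of all genes did. The p53-binding MDM4 read 7.91 in X-rays alone against 8.03 in control, 8.29 against 8.22 at 41.5 °C and 8.31 against 8.21 at 44 °C.

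Of 15 relatives of the set by sequence 12 were measured. Radiation at 37 and 41.5 °C raised 1 of the 12 (0.269% of all genes), SESN2, which is itself a p53 target. SESN3, the remaining sestrin, read 4.52 in X-rays alone against 4.48 in control and 4.61 against 4.72 at 41.5 °C (-0.03 ± 0.16, SE, over both pairs, adjusted p = 0.994 in limma). CCNG2, cyclin G2, had 0.21, TP53INP2 0.03 and RELT, of the TNF receptor family, -0.02, and none of these passed. In 44 °C heat without X-rays SESN2 and ISG20, an exonuclease related to AEN, rose (2.55% of all genes), ISG20 by 1.15. Without the intensity trend ISG20 missed the threshold (adjusted p = 0.0631 in limma), as SESN2 did (0.117).

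GDF15 of the set and SESN2 also answer to ATF4, the factor of the integrated stress response. For this reason 10 measured genes of that pathway, SESN2 among them, were looked at too. Radiation at 37 and 41.5 °C raised 2 of the 10 (0.269% of all genes), SESN2 and the stress-induced repressor ATF3 (0.73), with a median of -0.04. ATF3 missed the threshold after median centring, without the trend and in the additive model (adjusted p = 0.0717, 0.518 and 0.782 in limma). Heat at 44 °C raised ATF3 (2.14), SESN2 and DDIT3, a pro-apoptotic factor (1.07), and lowered DDIT4 (2.55% and 1.91% of all genes). At 41.5 °C against 37 °C, averaged over the pairs with and without X-rays, the kinase-like TRIB3 rose by 0.37. In the same comparison DDIT3 fell by 0.66 and DDIT4 by 0.52 (3.29% and 2.03% of all genes). The pair without X-rays gave 0.30 for TRIB3, -0.76 for DDIT3 and -0.62 for DDIT4. Without the intensity trend ATF3 at 44 °C was the 1 call of this pathway that held (adjusted p = 0.0215 in limma), and DDIT3 had 0.183 at 41.5 °C and 0.0713 at 44 °C. TRIB3 missed the threshold there (adjusted p = 0.293), with averaged features (0.0512) and in the additive model (0.0685), all in limma. ATF4 itself had -0.07 with radiation and did not pass. SESN2 and DDIT4 are in both this list and that of the p53 targets.

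The genes whose 6 values most resembled the mean profile of the set were looked for among 806 others that varied by at least 1 unit. The mean profile was 0.54 in X-rays alone, 0.67 in 41.5 °C heat and X-rays and -0.17 in 44 °C heat and X-rays, against -0.28 in control, -0.43 in 41.5 °C heat and -0.32 in 44 °C heat, relative to each gene's mean. Genes of the set followed it unequally. Their Pearson correlation with the mean of the others ran from 0.61 (AEN), 0.65 (CCNG1) and 0.66 (TP53I3) up to 0.96 (FBXO22). The 10 with the highest Pearson correlation (r from 0.94 to 0.85, 6 arrays that share 1 cell line and scaling) were GRHL3, an epithelial transcription factor, DNAI3, GAS6-AS1, PLK3, SMR3A, MIR4251, KITLG, MIR3189, RPS27L and MIR519E. SMR3A (1.60 to 2.64), MIR4251 (1.65 to 2.77) and MIR519E (1.91 to 2.99) read below the median over all features in every array. PLK3, RPS27L and KITLG, the ligand of the receptor KIT, are on the p53 target lists. GRHL3 read 5.48 in X-rays alone against 4.74 in control, 5.38 against 4.48 at 41.5 °C and 4.47 against 4.67 at 44 °C, with and without X-rays. Since these were picked for their pattern, they carry no test.

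MIR3189 lies within GDF15 on chromosome 19 by the RefSeq table. Its feature read 6.74 in X-rays alone against 5.62 in control, 6.64 against 5.40 at 41.5 °C and 4.74 against 4.96 at 44 °C, with and without X-rays. Like GDF15, it was high in both irradiated arrays below 44 °C, but in 44 °C heat alone it was 0.66 below the control where GDF15 was 0.28 above. An array feature of a microRNA gene cannot tell the mature microRNA from the host transcript. The mature arms (chr19:18386570-18386594 and chr19:18386607-18386627, plus strand, GRCh38.p14, RefSeq) are shown with the seed, bases 2 to 8, in capitals, and the seeds differ.
hsa-miR-3189-5p: uGCCCCAUcugugcccuggguagga
hsa-miR-3189-3p: cCCUUGGGucugaugggguag

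Outside the set, 223 genes were at least 1.5-fold higher in X-rays alone than in control. Taken by that pair of arrays only, they had median X-ray differences of 0.07 at 41.5 °C and 0.01 at 44 °C, and 29 of them were at least 1.5-fold higher at 41.5 °C and 10 at 44 °C. In all, 36 genes (0.242%) passed at both lower temperatures: 7 of the set, which was chosen on these differences, 10 of the other p53 targets and 19 others. PURPL, AQP7, MIR3928 and MIR620 passed at all 3 temperatures (0.0269%).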

How the data were processed

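RNA of 6 A549 samples was hybridised to 1 array each. Affymetrix Expression Console 1.1 with RMA made the deposited log2 values, per the submitters' processing notes. For the probes' genome build, nothing is stated in the sources used here. Of 53617 features, 16098 had exactly 1 symbol in the platform annotation and 37519 were unnamed here. All 16098 were matched to the RefSeq table of GRCh38.p14, which changed 0 symbols. For the 779 genes with several features the one with the highest mean was used, leaving 14884 genes.

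Differences between single arrays carry no test and were counted at 1.5-fold. Tests used limma 3.58.1 in R 4.3.3 on all 6 arrays, with temperature as a factor and separate radiation terms for 44 °C and for the 2 lower temperatures. This left 1 residual degree of freedom, the disagreement between the X-ray differences at 37 and 41.5 °C. Variances were moderated towards an intensity trend worth 11.4 prior degrees. Two-sided p-values were Benjamini-Hochberg adjusted over all 14884 genes and called under 0.05. The median standard error was 0.137 for radiation at 37 and 41.5 °C and 0.193 at 44 °C, and the number of arrays limits this precision. The fit was tested on simulated data with independent noise and changes of the shape that the model fits. Such data cannot check a design with 1 array in each group.

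The set, the gene lists and the separate term at 44 °C were chosen with earlier results of these data known. Named genes are the set, list members that passed (at most 6 per list and comparison), the 2 highest and 2 lowest of a list for radiation, and the 10 genes most like the set. Other examples, such as BAX, MDM4, CCNG2 and TP53INP2, were chosen after their values were seen. Alternatives were moderation without the trend, quantile normalization, median centring, brighter genes only, averaged features, an additive model, and that model without each array.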

Additional observations from a re-analysis of the deposited data

Results flagged for a closer look

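For 3 genes of the set the X-ray difference was above 0 at 37 and 41.5 °C and below 0 at 44 °C. The log2 differences at 44 °C were -0.09 for GDF15, -0.032 for TP53I3 and -0.017 for FBXO22. Each comes from 1 pair of arrays, the change of direction was not tested, and the sizes are below the median standard error of a radiation effect at 44 °C (0.193).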

How the results depend on the processing

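No paired analysis was possible because each group has 1 array and the labels give no replicate numbers that pair arrays. Moderation without the intensity trend left 0 genes for radiation at 37 and 41.5 °C (87 in the main setting) and 0 of 13 p53 targets outside the set, 0 for radiation at 44 °C (main 1), 0 for the difference between the radiation effects (main 5), 1 gene and 0 targets at 41.5 °C (main 792 and 5), and 104 genes and 1 target for 44 °C heat (main 664 and 6). A further quantile normalization gave 135 genes and 20 targets for radiation at 37 and 41.5 °C, 5 genes at 44 °C, and 21 genes and 2 targets for the difference. Median centring gave 53, 0 and 0 genes for these 3 comparisons. With features averaged, 0 genes passed for the difference, and the X-ray differences of FBXO22 were 0.39, 0.24 and -0.22 at 37, 41.5 and 44 °C. The additive model gave 0 genes and 0 targets for radiation, and 489 genes and 3 targets at 41.5 °C. Leaving out 1 array in the additive model gave 0 to 85 genes and 0 to 13 targets for radiation, the highest counts coming without either 44 °C array. With 1 of the 44 °C arrays left out, the radiation effect rests on the 37 and 41.5 °C pairs only, as in the main setting. Those highest counts therefore repeat the main setting and are no check of it. Of the genes of the set, 3, 5 and 0 passed 2-fold with X-rays at 37, 41.5 and 44 °C, 0 were 2-fold lower in 41.5 °C heat, and 0 passed 1.5-fold at 44 °C after quantile normalization. Among tested genes, values that did not pass changed sign for RELT (0.0712 with averaged features, 0.0296 in the additive model), CHEK2 (-0.0153), TP53AIP1 (0.0641), SCO2 (-0.0474) and ATF4 (0.0085), the last 4 in the additive model. Another 216 kept their direction and side of the threshold and 52 missed it. Of 150 alternative values of the set, which carry no test, 4 changed sign: after quantile normalization ACER2 at 44 °C with X-rays (-0.0116), TP53INP1 in 44 °C heat (0.0261) and FBXO22 in 41.5 °C heat (-0.0238), and with averaged features FBXO22 in 44 °C heat (0.0968). The causes were not tested.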
